A study of Mus musculus with 11 samples.

Results

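The 9 genes described here encode transcription factors that set and keep hepatocyte identity: Hnf4a, Foxa1, Foxa2, Foxa3, Cebpa and Onecut1, and the nuclear receptors Nr1h4 (FXR), Nr1i2 (PXR) and Nr1i3 (CAR). They were chosen by name from the 31053 genes in the feature tables, and all 9 passed the low-count filter in each fit. Their transcripts were followed in mouse liver before and after acetaminophen (APAP), a hepatotoxin at overdose that destroys the hepatocytes around the central veins. Spatial gene expression was measured on 11 snap-frozen, cryosectioned pieces of liver, each 1 library: 3 uninjured ones labelled 0 h (numbered 2, 3 and 4), then 2 taken 24 h (lettered A and B), 2 taken 36 h (also A and B) and 4 taken 48 h after APAP (A to D). The injured sections carry the disease label POD. Per the study's methods, mice were fasted before an intraperitoneal injection of APAP, the purchased strain was C57BL/6JCrl and mice were young adult males unless stated otherwise; the strain and sex of the animals behind these sections were not given for each section. For the spatial assay the methods give a single liver (n = 1) for each time, so n counts sections, every p measures only the spread between sections, and mouse and time cannot be told apart. No label names a slide, run or other batch.

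These factors act as a network. HNF4A is a nuclear receptor that binds regulatory elements of most genes for plasma proteins, lipoproteins and intermediary metabolism, the FOXA proteins are pioneer factors that bind closed chromatin, C/EBPα drives genes of gluconeogenesis and nitrogen metabolism and restrains proliferation, and ONECUT1 (HNF6) acts in hepatocyte and bile duct development. FXR senses bile acids, and PXR and CAR sense drugs and other foreign compounds and induce cytochrome P450 enzymes, with RXRα as their common partner. CAR is known to act in APAP toxicity in mice through the enzymes that turn the drug into its reactive metabolite.

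The sections held 1490 to 3466 spots that passed the filter and 31292663 to 67045372 unique molecular identifiers (UMIs). Levels are given as CPM, the UMIs of a gene summed over a section's spots per 1000000 UMIs, after scaling by the trimmed mean of M values (TMM). The TMM factors were 0.7835 to 0.8105 at 0 h and 0.9828 to 1.166 after injury, so the scaling itself moved with time. Under total-count scaling the median log2 change of all 14821 genes tested was 0.372, 0.485 and 0.537 at 24, 36 and 48 h against 0 h, and per summed UMIs of 6 hepatocyte markers it was 0.294, 0.307 and 0.398, beside 0.0466, 0.0483 and 0.0108 with TMM. The share of called genes that were higher was 55.4%, 57.5% and 52.7% with TMM, 80.4%, 94.1% and 93.7% with total counts and 76.4%, 88.8% and 90.2% with hepatocyte markers. A change is therefore relative to the median gene, and values under other scalings are given beside the TMM ones. Hepatocyte markers (Alb, Ttr, Hp, Apoa1, Cyp2e1 and Trf) summed to 119000–124400 CPM at 0 h and 85190–103700 CPM at 48 h, so the tissue read as liver at every time. With TMM 2 of these 6 markers were higher and 4 lower at 48 h, such as Hp (1.18 on the log2 scale) and Cyp2e1 (-2.19). Values per hepatocyte marker UMI are therefore not changes per hepatocyte. A score list of 14 leucocyte and mesenchyme genes summed to 509–562.5, 859–965.6, 736.8–1546 and 1682–3374 CPM at 0, 24, 36 and 48 h. A spot covers several cells, and fewer hepatocytes and less RNA per hepatocyte cannot be told apart. Levels of different genes were not compared, since 3′ counts are not levels per length.

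Hnf4a (chromosome 2, 163506808–163572910, plus strand, GRCm38) was measured at 179, 178.5 and 167.5 CPM in 0 h sections 2, 3 and 4, at 144.3 and 182.8 CPM in 24 h sections A and B, at 167.6 and 216.3 CPM in the 36 h pair, and at 160.5, 158.6, 130.8 and 126.8 CPM in 48 h sections A to D. All 4 sections at 48 h lay below all 3 at 0 h, while the 24 h and 36 h ranges overlapped with them. The means were 175 ± 6.52 (SD, n = 3), 163.5 ± 27.3 (n = 2), 192 ± 34.4 (n = 2) and 144.2 ± 17.9 CPM (n = 4). No difference from 0 h passed the test. The log2 change at 48 h was -0.28 (95% interval -0.57 to 0.01, edgeR adjusted p = 0.1092) with TMM, and 0.25 with total counts or 0.10 per hepatocyte marker UMI, so its sign depended on the scaling. At 24 h it was -0.10 (-0.45 to 0.25, adjusted p = 0.6529) and at 36 h 0.13 (-0.22 to 0.48, adjusted p = 0.5524), except that total counts gave 0.57 at 36 h with an adjusted p of 0.009568. In order of level the times ran 36 h, 0 h, 24 h and 48 h, and no neighbours in that order differed past the test.

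The promoter windows of Cebpa and Nr1i3, which had the firmest fall and the rise below, are shown once, as the 250 bases before the annotated start, from RefSeq on GRCm38.p6 and all on the plus strand. They lie at chr7:35119043-35119292 (Cebpa) and chr1:171213720-171213969 (Nr1i3). Capitals mark matches to searched motifs: in Cebpa the TATA box TATAAA and in Nr1i3 the E-box CACGTG, the core sequence bound by CLOCK and BMAL1.
Cebpa: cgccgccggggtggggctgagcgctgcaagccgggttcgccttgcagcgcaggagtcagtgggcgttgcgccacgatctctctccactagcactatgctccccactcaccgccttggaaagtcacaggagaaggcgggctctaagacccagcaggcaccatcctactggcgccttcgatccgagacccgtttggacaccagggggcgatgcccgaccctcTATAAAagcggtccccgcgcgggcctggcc
Nr1i3: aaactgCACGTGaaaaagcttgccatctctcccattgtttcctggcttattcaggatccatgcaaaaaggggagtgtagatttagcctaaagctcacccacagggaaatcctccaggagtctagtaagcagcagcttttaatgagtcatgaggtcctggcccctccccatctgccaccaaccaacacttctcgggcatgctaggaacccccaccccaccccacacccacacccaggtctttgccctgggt
All 9 genes had a window, 12 in total, and 6 motifs were searched on both strands. The forkhead motif TGTTTAC was in 3.17% of all 32851 windows, the nuclear receptor core motif AGGTCA in 14.0%, the C/EBP motif TTGCNNAA in 9.56%, TTANGTAA (bound by PAR-bZIP factors such as DBP) in 2.06%, CACGTG in 6.02% and TATAAA in 12.4%. Cebpa held TATAAA at 30 bases before the start. Nr1i3 held CACGTG at 244 bases and Onecut1 at 232. Nr1h4 held AGGTCA, Foxa2 and Foxa3 held TATAAA and Foxa1 held TGTTTAC, so 7 of the 9 genes held at least 1 match, and no matches overlapped. A match is a description of these letters, and 3′ counts do not tell starts of a gene apart.

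The 3 forkhead genes were called at different times or not at all. Foxa1 (chromosome 12, 57540628–57546916, minus strand), a pioneer factor, stood at 10.52, 11.21 and 7.597 CPM at 0 h, 13.31 and 8.008 at 24 h, 8.547 and 5.65 at 36 h, and 9.845, 10.65, 6.944 and 13.18 at 48 h. These ranges overlapped at every time, and the 48 h change was 0.05 on the log2 scale (edgeR adjusted p = 0.8834). Foxa2 (chromosome 2, 148042877–148046969, minus strand), which shares targets with Foxa1, stood at 24.43, 21.63 and 20.67 CPM at 0 h, 23.61 and 17.58 at 24 h, 13.62 and 12.87 at 36 h, and 29.36, 22.93, 15.22 and 23.58 at 48 h. Both 36 h sections were the lowest of all 11, and the other times overlapped. Foxa2 at 36 h fell by 0.75 on the log2 scale against 0 h (SE 0.2337, 95% interval -1.27 to -0.23, edgeR adjusted p = 0.03528), and it fell by 0.72 in the class of spots with the lowest non-hepatocyte score (adjusted p = 0.0498). The call was lost with total counts (-0.31, adjusted p = 0.2777), per hepatocyte marker UMI (-0.49, adjusted p = 0.1514) and without any 1 of the 5 sections compared, with changes from -0.81 to -0.69 and edgeR adjusted p from 0.05048 (without 0 h section 4) to 0.1414 (without 36 h section B). Without 0 h section 2 or 3 the adjusted p was 0.08754 or 0.06387, and without 36 h section A it was 0.08398. At 48 h Foxa2 was 0.03 from 0 h on the log2 scale (adjusted p = 0.8992) with TMM and 0.56 higher with total counts (adjusted p = 0.0238).

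Foxa3 (chromosome 7, 19013284–19023538, minus strand), a FOXA family member that binds genes of glucose metabolism, stood at 54.24, 54.62 and 84.96 CPM at 0 h, 69.4 and 83.88 at 24 h, 40.82 and 57.53 at 36 h, and 41.41, 43.12, 27.07 and 41.89 at 48 h. All 4 sections at 48 h lay below every section at 0 h and 24 h, and 48 h section C was the lowest of all. Foxa3 at 48 h fell by 0.75 on the log2 scale against 0 h (SE 0.2096, edgeR adjusted p = 0.01472) and by 0.998 against 24 h (SE 0.2324, adjusted p = 0.008649). The first call was lost without 0 h section 4 (-0.52, edgeR adjusted p = 0.06384) and the second without 24 h section B (-0.85, adjusted p = 0.07382). It was also lost with total counts (-0.22, adjusted p = 0.3359), per hepatocyte marker UMI (-0.37, adjusted p = 0.09873) and in the spots with the lowest non-hepatocyte score (-0.51, adjusted p = 0.1031). The direction was the same in each of these.

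Cebpa (chromosome 7, 35119293–35121928, plus strand) had its lowest levels at 48 h. It stood at 212.9, 137.6 and 141.8 CPM at 0 h, 141 and 115.2 at 24 h, 143.5 and 95.25 at 36 h, and 103.3, 99.67, 75.79 and 107 at 48 h. Every 48 h section lay below every 0 h section, while 24 h and 36 h overlapped with 0 h. The means were 164 ± 42.3 (SD, n = 3), 128 ± 18.3 (n = 2), 119 ± 34.1 (n = 2) and 96.5 ± 14.1 CPM (n = 4). At 48 h Cebpa fell by 0.77 on the log2 scale against 0 h (SE 0.1953, edgeR adjusted p = 0.009069), and this call held without each of the 11 sections in turn (-0.88 to -0.54, adjusted p up to 0.04989). With total counts the change was -0.24 (adjusted p = 0.3072), per hepatocyte marker UMI -0.38 (adjusted p = 0.1758) and in the spots with the lowest non-hepatocyte score -0.43 (adjusted p = 0.1111), so neither alternative scaling called it. The changes of -0.36 at 24 h (adjusted p = 0.2514) and -0.46 at 36 h (adjusted p = 0.1675) did not pass.

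Onecut1 (chromosome 9, 74861921–74891781, plus strand) was sparse. It gave 76, 56 and 106 UMIs in the 3 sections at 0 h, 227 and 15 at 24 h, 14 and 10 at 36 h, and 34, 33, 23 and 60 at 48 h, or 1.673, 1.031 and 2.994 CPM, 4.882 and 0.4786 CPM, 0.4056 and 0.2854 CPM, and 0.4923, 0.6643, 0.33 and 0.8669 CPM. Section A at 24 h was the highest of all 11 and section B lay among the later sections, and all 6 sections at 36 h and 48 h lay below all 3 at 0 h. The changes against 0 h were -2.44 at 36 h (SE 0.9103, edgeR adjusted p = 0.06792) and -1.68 at 48 h (SE 0.6416, adjusted p = 0.05621), which did not pass with all sections. Without 24 h section A they passed at the same sizes, -2.44 (adjusted p = 0.01319) and -1.68 (adjusted p = 0.008534), as they did without 24 h section B (adjusted p = 0.01279 and 0.007875). The fall of 2.21 from 24 h to 48 h (SE 0.6902, adjusted p = 0.03177) turned to 0.29 (adjusted p = 0.8049) without 24 h section A, and was also lost without 48 h section A, B or C (adjusted p = 0.06595, 0.05681 and 0.07391). ONECUT1 is also made by bile duct cells. Cholangiocyte markers summed to 98.08–137 CPM at 0 h and 237.3–507.4 CPM at 48 h. Of the 7 markers 2 were called higher at 48 h, with a list median of 0.25 on the log2 scale. The sum mostly followed Spp1, whose mean went from 57.31 to 303.8 CPM. The part of bile duct cells in the level of Onecut1 was not tested.

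**Figure D1:**
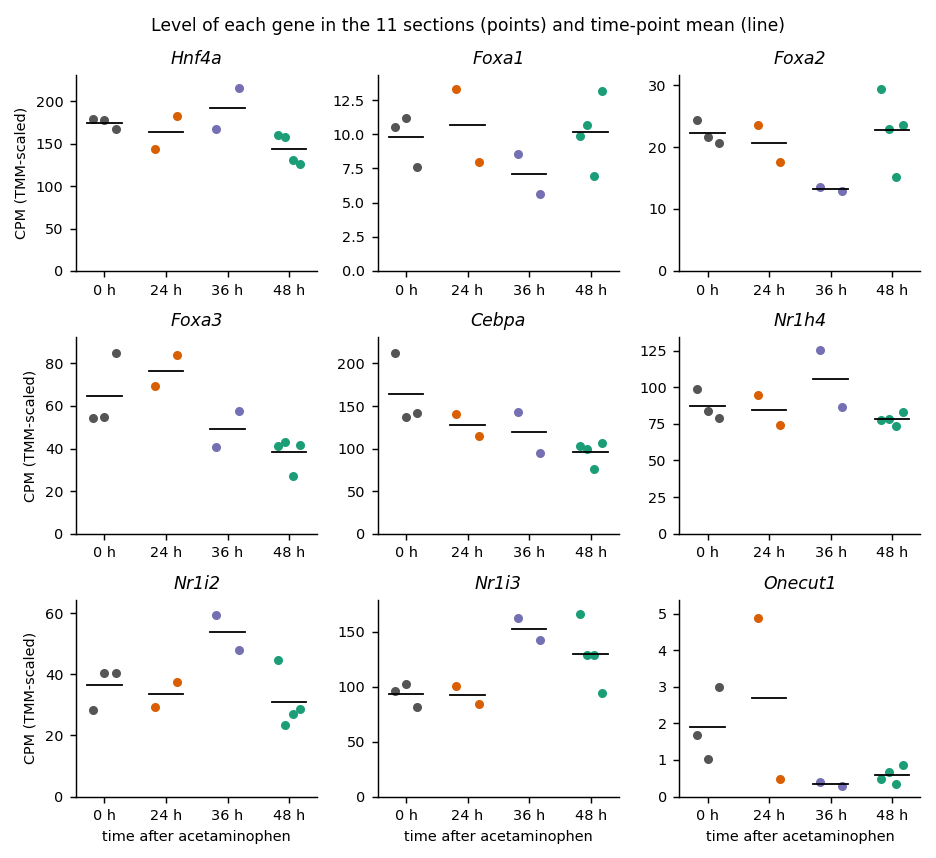
Level in CPM (TMM scaled, linear axis from 0) of each of the 9 genes in all 11 sections, grouped by hours after APAP. Each point is 1 section and each short horizontal line is the mean of a time. Cebpa and Foxa3 are lowest at 48 h, Nr1i3 is highest at 36 h with means of 93, 92.1, 152 and 129 CPM over time, and the 2 sections of Onecut1 at 24 h lie apart at 4.882 and 0.4786 CPM.

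Nr1h4 (chromosome 10, 89454234–89533585, minus strand), the bile acid receptor, stood at 98.92, 83.72 and 78.69 CPM at 0 h, 94.44 and 73.92 at 24 h, 125.1 and 86.78 at 36 h, and 77.5, 78.29, 73.56 and 83.05 at 48 h. Groups overlapped at every time. The 48 h change was -0.16 (95% interval -0.47 to 0.15, edgeR adjusted p = 0.3834) with TMM and 0.37 with total counts (adjusted p = 0.05116), so the sign depended on scaling. At 36 h the change was 0.28 with TMM (adjusted p = 0.2215), and it was called with total counts (0.73, adjusted p = 0.006551) and in the spots with the lowest non-hepatocyte score (0.49, adjusted p = 0.03214).

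Nr1i2 (chromosome 16, 38248323–38294824, minus strand), the PXR gene, stood at 28.22, 40.36 and 40.47 CPM at 0 h, 29.25 and 37.62 at 24 h, 59.39 and 48.05 at 36 h, and 44.77, 23.35, 27.14 and 28.69 at 48 h. Both 36 h sections were above all 9 others. The change at 36 h was 0.56 on the log2 scale (SE 0.2612, edgeR adjusted p = 0.1274), which did not pass with TMM. It passed with total counts (1.004, adjusted p = 0.009355), per hepatocyte marker UMI (0.84, adjusted p = 0.04072) and in the spots with the lowest non-hepatocyte score (0.84, adjusted p = 0.04321). At 48 h it was -0.23 (-0.72 to 0.26, adjusted p = 0.4212) with TMM, and 0.30 with total counts.

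Nr1i3 (chromosome 1, 171213970–171220701, plus strand), the CAR gene, was the member that rose. It stood at 95.55, 101.9 and 81.57 CPM at 0 h, 100.2 and 84.07 at 24 h, 162 and 142.1 at 36 h, and 165.9, 128.5, 128.5 and 94.36 at 48 h. Both 36 h sections and 3 of the 4 at 48 h were above every section at 0 h and 24 h, whereas 48 h section D lay within their range. The means were 93 ± 10.4 (SD, n = 3), 92.1 ± 11.4 (n = 2), 152 ± 14.0 (n = 2) and 129 ± 29.2 CPM (n = 4). Nr1i3 rose by 0.71 at 36 h (SE 0.1991, 95% interval 0.27 to 1.15, edgeR adjusted p = 0.0231) and by 0.48 at 48 h (SE 0.1701, adjusted p = 0.04182) against 0 h, and by 0.72 at 36 h against 24 h (SE 0.2218, adjusted p = 0.04997). The step from 36 h to 48 h, -0.23, did not pass (adjusted p = 0.5211).

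Rises of Nr1i3 were larger with other scalings, which also moved the median of all genes up. With TMM, total counts and hepatocyte markers that median was 0.0483, 0.485 and 0.307 at 36 h. At 48 h it was 0.0108, 0.537 and 0.398. The larger rises with these scalings are thus not a gain of Nr1i3 over other genes. At 36 h the rises were 1.15 with total counts (edgeR adjusted p = 0.001403) and 0.98 per hepatocyte marker UMI (adjusted p = 0.008842). With TMM in the spots with the lowest non-hepatocyte score the rise was also 0.98 (adjusted p = 0.01191). At 48 h the 3 values, in the same order, were 1.002 (adjusted p = 0.0006938), 0.86 (adjusted p = 0.004033) and 0.75 (adjusted p = 0.01434). With TMM the 36 h call was lost without 0 h section 2 (0.72, adjusted p = 0.05846), 0 h section 4 (0.61, adjusted p = 0.07675) or 36 h section A (0.61, adjusted p = 0.0856). The 48 h call was lost without 7 of the 11 sections (any at 0 h, 24 h section A, or 48 h section A, B or C), with values from 0.33, without 48 h section A, to 0.60 and adjusted p up to 0.1537. The rise from 24 h to 36 h held in only 2 of 11 omissions (0.60 to 0.85, adjusted p up to 0.2076).

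Genes of the circadian clock and the PAR-bZIP factors, which are known to drive Nr1i3 in liver, were read beside it because the labels give no time of day. Their 13 genes summed to 114.5–168.9 CPM in the 0 h sections, 131.3–154.3 in the 24 h, 267.6–369.9 in the 36 h and 126.3–166.1 in the 48 h sections. At 36 h, 5 of the 13 were higher and 3 lower than at 0 h, among them Per3 (4.94, edgeR adjusted p = 0.0004299) and Arntl, which encodes BMAL1 (-2.26, adjusted p = 4.35e-05). At 48 h 1 was higher (Per3, 2.37) and 3 were lower, with Arntl at -0.52 and Clock at -0.48. Arntl and Clock at 48 h were 0.00 and 0.04 with total counts. The sums at 48 h overlapped those at 0 h. The part of the clock in the Nr1i3 result was not tested. With no time of day given, it cannot be told apart from hours after APAP for any 36 h value, including those of Foxa2 and Nr1i2.

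Counted together, no member was called in either direction at 24 h, against 23.1% of all genes higher and 18.6% lower. At an unadjusted p under 0.05 the count was also 0, and DESeq2 called 0. At 36 h 1 of 9 rose (Nr1i3) and 1 fell (Foxa2), against 16.8% and 12.4% of all genes. At 48 h 1 rose (Nr1i3) and 2 fell (Cebpa and Foxa3), against 23.3% and 20.9%. With 9 genes, the shares at 36 h and 48 h were not read as apart from the background. Between injured times 1 was higher at 36 h than at 24 h and 0 lower (background 7.04% and 8.58%), and from 24 h to 48 h 0 were higher and 2 lower (background 16.2% and 17.8%). From 36 h to 48 h 0 were called (background 1.62% higher and 1.43% lower), with 4 at an unadjusted p under 0.05 and 2 called by DESeq2. The log2 changes that were not called lay between -2.97 (Onecut1) and 0.69 (Nr1i2) from 24 h to 36 h, between -0.41 (Cebpa) and 0.49 (Nr1i3) from 24 h to 48 h, and between -0.79 (Nr1i2) and 0.78 (Foxa2) from 36 h to 48 h. The 3 comparisons with 0 h share the same control sections. The members' median log2 change was -0.049, -0.393 and -0.229 at 24, 36 and 48 h, while with total counts it was 0.28, 0.0424 and 0.297, with 4 higher and 0 lower at 36 h and 2 higher and 0 lower at 48 h, so the sign of the median and the direction of the calls depended on scaling. The 9 levels summed to 626.2–705.4, 603.6–620.4, 664.8–721 and 485.4–633.2 CPM.

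**Figure D2:**
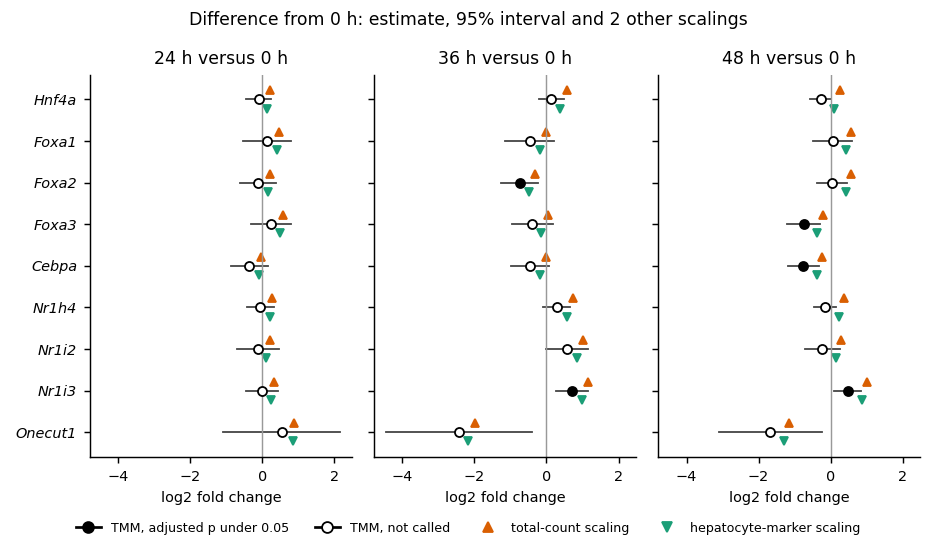
Log2 change of each gene at 24, 36 and 48 h against 0 h, with 95% intervals; filled circles passed an edgeR adjusted p of 0.05, triangles show total-count scaling and inverted triangles hepatocyte-marker scaling. Filled circles are Foxa2 and Nr1i3 at 36 h and Foxa3, Cebpa and Nr1i3 at 48 h, and at every time the alternative scalings lie above the TMM values.

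Uninjured liver was next divided along the lobule. Spots of each 0 h section were ranked by a score of 8 central landmark genes (such as Glul and Cyp2e1) minus a score of 9 portal landmark genes (such as Cyp2f2 and Hal), none of them a member, and the highest and lowest of 3 equal classes were compared within sections. These levels have their own TMM scaling and are not those of the time course. The central class had 2 members higher and 2 lower than the portal class, against 12.4% and 13.2% of 12318 genes tested. Nr1i3 was the most zoned, with 47.83, 52.68 and 43.47 CPM in the portal and 111.2, 115.9 and 89.24 CPM in the central class of sections 2, 3 and 4. Its classes did not overlap, and it was 1.14 higher on the log2 scale in the central class (SE 0.0384, edgeR adjusted p = 2.28e-18), 2.05-fold to 2.32-fold by section. Nr1h4 was also higher centrally, at 73.47, 59.88 and 59.22 against 87.58, 75.29 and 68.33 CPM (0.27, SE 0.0374, adjusted p = 2.73e-06), a difference smaller than that between sections but in the same direction in all 3.

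Cebpa and Foxa3 had the opposite gradient. Cebpa stood at 184.8, 116.9 and 124.6 CPM in the portal and 158.8, 105.9 and 105 CPM in the central class (-0.20, SE 0.0313, edgeR adjusted p = 1.38e-05). Foxa3 stood at 45.56, 49.41 and 72.46 CPM portally and 42.75, 39.97 and 61.89 CPM centrally (-0.21, SE 0.0446, adjusted p = 0.000562). Each was lower centrally in 3 of 3 sections. Hnf4a was flat, at 138.2, 142.4 and 135.2 CPM portally and 143.9, 140.2 and 130.8 CPM centrally, with an interval of -0.066 to 0.061 around -0.00. Foxa1 (0.19), Foxa2 (-0.06), Nr1i2 (-0.09) and Onecut1 (0.17) did not pass, with adjusted p from 0.213 to 0.6389. All 4 calls held in each of the 5 other settings and without each section. Foxa1 was called, at 0.36 (adjusted p = 0.04086), only without section 3.

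In 5 equal layers from portal to central, Nr1i3 rose stepwise in the mean of 3 sections, 43.9, 57.2, 74.2, 86.5 and 113.8 CPM. Nr1h4 changed mostly in the innermost layers, with 63.7, 64.2, 67.3, 71.7 and 79.7 CPM, and Cebpa ran down from 142.5 through 134.7, 128.1 and 122.1 to 120.6 CPM. Hnf4a was 135, 139, 145, 146 and 134 CPM, highest in the middle. These layer means are a description along the same ranking. Beside them, the 7 cholangiocyte markers were all lower centrally. Without TMM scaling, they summed to 133.6–179.9 UMIs per 1000000 in the portal and 31.97–45.63 in the central class. Spots held 22930–34330 UMIs portally and 18440–28760 centrally. The part of either in the gradients was not tested. Of the 14 PXR and CAR target genes tested there, 7 were higher and 2 lower centrally.

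**Figure D3:**
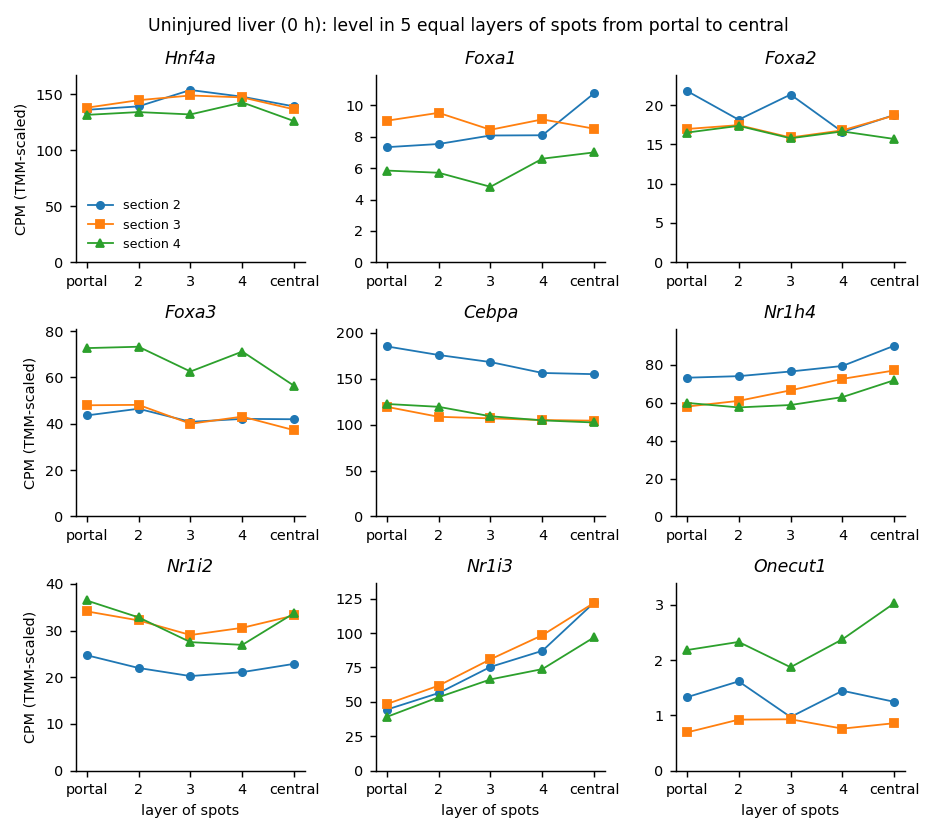
Level in CPM of each gene in 5 equal layers of spots from portal to central at 0 h, 1 line for each of the 3 sections. Nr1i3 rises from layer to layer in the mean from 43.9 to 113.8 CPM and Cebpa declines from 142.5 to 120.6 CPM, while Hnf4a stays between 133.8 and 145.8 CPM.

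After injury the central landmarks were themselves lost (Glul, made in the hepatocytes next to the central vein, was -3.75 on the log2 scale at 48 h), so spots of all 11 sections were ranked by the portal score alone. The highest of 3 equal classes is called portal and the lowest portal-poor. Portal-poor spots held the central hepatocytes at 0 h and, after injury, also the lesion. The portal landmark Cyp2f2 itself was -1.54 at 48 h, so a class is a rank within its section and not a fixed place. At 0 h 1 member was higher in the portal class (Cebpa, 0.22, edgeR adjusted p = 0.01443) and 2 were lower (Nr1i3, -1.09, adjusted p = 0.007521, and Nr1h4, -0.24, adjusted p = 0.03748), against 6.32% higher and 6.31% lower of 14077 genes tested. The calls of Cebpa and Nr1h4 were lost without any 1 of the 3 sections at 0 h, and that of Nr1i3 without section 2 (-1.04, adjusted p = 0.05168).

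Nr1i3 turned from portal-poor to portal over the time course. At 0 h it stood at 138.4, 145.4 and 111.6 CPM in the portal-poor and 61.14, 69.37 and 55.68 CPM in the portal class, at 24 h at 102.4 and 68.48 against 85.68 and 90.68, at 36 h at 134.4 and 104.2 against 179.4 and 198.6, and at 48 h at 116.5, 89.65, 73.87 and 76.31 against 202, 149.9, 186.2 and 100.6. The portal to portal-poor ratio was 0.442–0.499, 0.837–1.32, 1.33–1.91 and 1.32–2.52 over the 4 times, so it lay below 1 in 3 of 3 sections at 0 h and above 1 in all 6 at 36 h and 48 h. In log2 terms the portal difference after 24, 36 and 48 h was 0.06 (edgeR adjusted p = 0.8908), 0.67 (adjusted p = 0.05807) and 0.82 (adjusted p = 0.001949). Tested against the difference at 0 h it was larger by 1.14 (adjusted p = 0.03427), 1.76 (adjusted p = 0.004005) and 1.90 (adjusted p = 0.0003186). The 36 h and 48 h values held without each section, and that at 24 h was lost without any 0 h section, 24 h section B (0.83, adjusted p = 0.2238) or 48 h section A.

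The shift of Nr1i3 was smaller among the spots of lower non-hepatocyte score. That score is a rank within its section and not a fixed level of other cells. When only spots under their section's median non-hepatocyte score were ranked, the portal difference of Nr1i3 was -1.16, -0.44, 0.10 and -0.26 at 0, 24, 36 and 48 h. Its difference from 0 h was then 0.72 at 24 h (edgeR adjusted p = 0.09491), 1.26 at 36 h (adjusted p = 0.006808) and 0.90 at 48 h (adjusted p = 0.0076). Over all spots, total counts gave 0.88 (adjusted p = 0.04767), 1.497 (adjusted p = 0.003922) and 1.52 (adjusted p = 0.0004477). The shift against 0 h was thus called at 36 h and 48 h in each of these settings, while a level above 1:1 at 48 h was not kept among spots of low non-hepatocyte score.

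Nr1i2 had the largest log2 portal difference of the 9 genes at 48 h. At 0 h it stood at 27.51, 40.66 and 40.47 CPM in the portal-poor and 30.2, 42.86 and 44.57 CPM in the portal class, and at 48 h at 25.46, 13.44, 14.24 and 19.69 against 69.95, 35.94, 44.51 and 39.25 CPM, a 1.99-fold to 3.13-fold difference in 4 of 4 sections. Its log2 difference was 0.11 at 0 h, 0.59 at 24 h (edgeR adjusted p = 0.0002941), 0.87 at 36 h (adjusted p = 1.30e-06) and 1.38 at 48 h (adjusted p = 4.53e-13). Against 0 h it was larger by 0.47 (adjusted p = 0.01988), 0.76 (adjusted p = 0.000274) and 1.26 (adjusted p = 7.79e-09), and the 24 h value was lost without 0 h section 3 or either 24 h section. In spots under the median non-hepatocyte score the 48 h portal difference was 0.44 (adjusted p = 9.27e-07) and its difference from 0 h 0.32 (adjusted p = 0.04257). Over all spots with total counts, Nr1i2 differed from 0 h by 0.21 at 24 h (adjusted p = 0.274, the call lost), 0.50 at 36 h (adjusted p = 0.004979) and 0.87 at 48 h (adjusted p = 4.05e-07).

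Hnf4a, flat across the uninjured lobule, was unevenly spread after injury. Its portal-poor and portal levels were 182.4, 178 and 164 against 172.3, 179 and 167.7 CPM at 0 h, and 128.3, 120.8, 93.53 and 95.69 against 197.4, 189.4, 170.7 and 163.1 CPM at 48 h. The classes overlapped at 0 h and did not at 48 h, and the portal levels at 48 h spanned those at 0 h. The log2 portal difference was -0.01 at 0 h, 0.45 at 24 h (edgeR adjusted p = 0.0001471), 0.48 at 36 h (adjusted p = 6.63e-05) and 0.73 at 48 h (adjusted p = 1.32e-10), and the difference from 0 h was 0.47 (adjusted p = 0.002668), 0.50 (adjusted p = 0.001173) and 0.74 (adjusted p = 2.46e-07). Without 24 h section B that at 24 h was 0.32 (adjusted p = 0.1113). In spots under the median non-hepatocyte score the 48 h difference from 0 h was 0.01. Total counts ended the Hnf4a portal calls of 24 h (0.14, adjusted p = 0.1475) and 36 h (0.17, adjusted p = 0.06067) and kept that of 48 h (0.29, adjusted p = 2.51e-05). With them the differences from 0 h were 0.20 (adjusted p = 0.1348) and 0.24 (adjusted p = 0.06642), both calls lost, and 0.35 at 48 h (adjusted p = 0.0006382).

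Over all spots Nr1h4 also changed sides. It stood at 110, 94.47 and 86.64 CPM in the portal-poor and 94.16, 76.83 and 75.66 CPM in the portal class at 0 h, and at 58.99, 56.64, 51.12 and 67.61 against 96.65, 98.19, 100.9 and 102.3 CPM at 48 h. The portal class was lower in 3 of 3 sections at 0 h and higher in 4 of 4 at 48 h, 1.51-fold to 1.97-fold. The log2 portal difference at 24, 36 and 48 h was 0.25 (edgeR adjusted p = 0.0467), 0.62 (adjusted p = 2.54e-05) and 0.77 (adjusted p = 6.31e-10), larger than at 0 h by 0.49 (adjusted p = 0.006171), 0.86 (adjusted p = 3.22e-05) and 1.01 (adjusted p = 2.91e-08). The 24 h portal call was lost without 6 of the 11 sections. Without 24 h section B that difference was 0.06 (adjusted p = 0.791) and its difference from 0 h 0.30 (adjusted p = 0.1887). In spots under the median non-hepatocyte score the differences from 0 h at 36 h and 48 h were 0.40 (adjusted p = 0.00785) and 0.28 (adjusted p = 0.01131). These give a shift from 0 h and not the side on which Nr1h4 lay in those spots. With total counts the 24 h portal difference of Nr1h4 had the opposite sign, -0.06 (adjusted p = 0.5863), and its call against 0 h was lost (0.23, adjusted p = 0.127), whereas the later differences from 0 h stayed called at 0.60 (adjusted p = 0.0002237) and 0.62 (adjusted p = 2.71e-06).

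Cebpa was portal at 0 h and more so at 48 h, at 76.58, 71.3, 61.75 and 86.19 CPM in the portal-poor and 132, 133.3, 99.83 and 135.3 CPM in the portal class. Its log2 portal difference was 0.14 at 24 h, 0.48 at 36 h (edgeR adjusted p = 2.69e-05) and 0.76 at 48 h (adjusted p = 1.46e-11), larger than at 0 h by 0.27 at 36 h (adjusted p = 0.04227) and 0.54 at 48 h (adjusted p = 4.79e-06). The 36 h difference was lost without any 1 of the 0 h or 36 h sections, and among spots under the median non-hepatocyte score that at 48 h was -0.00. With total counts the Cebpa differences from 0 h were 0.01 at 36 h (adjusted p = 0.952) and 0.15 at 48 h (adjusted p = 0.08176), so both calls were lost, while its portal differences remained called at 0.18 (adjusted p = 0.04681) and 0.32 (adjusted p = 2.95e-06). Foxa3 at 48 h stood at 40.13, 36.11, 22.19 and 33.69 against 41.32, 46.58, 31.15 and 50.94 CPM, and its portal difference of 0.37 (adjusted p = 0.0009189) did not differ past the test from that at 0 h (0.14, adjusted p = 0.3843). With total counts the Foxa3 difference at 48 h was -0.07, the opposite sign, and in spots under the median non-hepatocyte score it was -0.22 (adjusted p = 0.02641), lower than at 0 h by -0.41 (adjusted p = 0.009016).

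Foxa1, Foxa2 and Onecut1 were called only at 48 h. Foxa2 stood at 22.94, 17.39, 11.72 and 18.77 CPM in the portal-poor and 36.6, 29.74, 19.58 and 29.12 CPM in the portal class (0.70, edgeR adjusted p = 8.38e-09), higher in 4 of 4 sections. Foxa1 stood at 7.339, 9.432, 4.815 and 10.76 against 12.54, 11.95, 9.115 and 16.07 CPM (0.65, adjusted p = 2.22e-06). Onecut1 had 7, 7, 8 and 14 UMIs against 13, 13, 7 and 30 UMIs (1.19, adjusted p = 0.0007369). With TMM its CPM ratio was up to 2.73 and above 1 in 4 of 4 sections. In 48 h section C that ratio was above 1 only through the TMM scaling. The portal class there had fewer Onecut1 UMIs (7 against 8) from more UMIs in all (21280152 against 18372841). The differences from 0 h were 0.63 for Foxa2 (adjusted p = 5.61e-05), 0.83 for Foxa1 (adjusted p = 8.40e-05) and 1.46 for Onecut1 (adjusted p = 0.001733). With total counts that of Foxa2 was 0.25 and was not called, while Foxa1 (0.44) and Onecut1 (1.083) were. In spots under the median non-hepatocyte score none of the 3 was called in edgeR at 48 h, with portal differences of 0.10 for Foxa1 (adjusted p = 0.6351), 0.12 for Foxa2 (adjusted p = 0.3168) and 0.78 for Onecut1 (adjusted p = 0.2054), and their differences from 0 h had adjusted p of 0.2549, 0.766 and 0.2352. At 24 h and 36 h, over all spots, Foxa1 stood at 0.17 and 0.12, Foxa2 at 0.12 and 0.09, and Onecut1 at 0.23 and -0.04.

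In all, the portal class had 4 members higher at 24 h (Hnf4a, Foxa3, Nr1h4 and Nr1i2), 4 at 36 h (Hnf4a, Cebpa, Nr1h4 and Nr1i2) and 9 at 48 h, against 16.9%, 16.7% and 31.2% of all genes. The portal difference was larger than at 0 h for 4, 5 and 8 members, against 11.5%, 12.7% and 24.4%. All 48 h calls held without each section. The 24 h call of Foxa3 was lost without 24 h section B (0.31, edgeR adjusted p = 0.1929). The scaling moved these counts: with total counts the portal class had 2 members called at 24 h, of which Nr1i2 was higher (0.27, adjusted p = 0.03984) and Cebpa lower (-0.18, adjusted p = 0.04573), and the median of all genes moved to -0.308, -0.318 and -0.475 at 24, 36 and 48 h, with the higher share of called genes going from 52.2%, 52.0% and 46.7% to 12.7%, 13.3% and 15.2%. Non-hepatocyte score genes lay opposite to the members. Without TMM scaling, they summed to 379.2–406.9 UMIs per 1000000 in the portal-poor and 402.2–437.7 in the portal class at 0 h. At 48 h they summed to 3775–7942 against 711.2–1446. Hepatocyte markers, in the same unit, were 72660–95010 against 112300–133500 at 48 h. These sums are on another scale than the members' TMM differences and were not compared with them in size. Among spots under the median non-hepatocyte score the portal class had 0, 1 and 3 members called at 24, 36 and 48 h, of which Foxa3 at 48 h was lower.

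**Figure D4:**
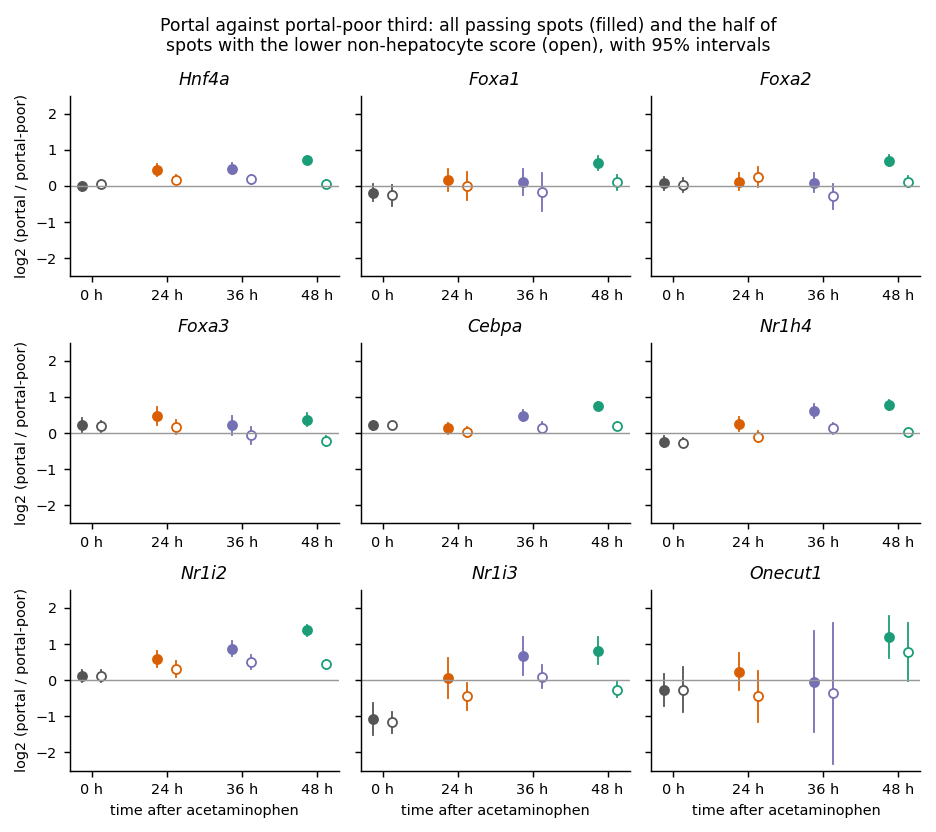
Log2 ratio of the portal to the portal-poor class for each gene at 0, 24, 36 and 48 h, with 95% intervals; filled symbols use all spots and open symbols only spots under their section's median non-hepatocyte score. With all spots Nr1i3 goes from -1.09 to 0.82 and Nr1i2 from 0.11 to 1.38, and at 48 h the open symbols lie nearer to the 0 h values for 8 of the 9 genes, Foxa3 being the exception.

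The members were also set against the non-hepatocyte cells directly, by ranking spots within a section on the score of leucocyte and mesenchyme genes. Spots rich in other cells can hold a smaller share of hepatocyte transcripts. The counts therefore describe where the members lay and are not a test of their regulation. At 0 h no member passed the test between the highest and lowest of 3 classes in edgeR (background 0.588% lower), with 5 at an unadjusted p under 0.05. At 24 h 4 were lower in the non-hepatocyte-rich class (background 16.8%), with Hnf4a at -0.37 (edgeR adjusted p = 0.0006558), Foxa3 at -0.52, Nr1h4 at -0.64 and Nr1i2 at -0.66. The first pair was lost without 24 h section B (-0.26, adjusted p = 0.09892, and -0.34, adjusted p = 0.05554). At 36 h 6 were lower (background 17.7%), Hnf4a, Foxa3, Cebpa, Nr1h4, Nr1i2 and Nr1i3, of which Foxa3 (-0.20, adjusted p = 0.3798) and Nr1i3 (-0.61, adjusted p = 0.1465) were lost without 36 h section B. At 48 h all 9 were lower (background 32.3%), from -0.56 for Foxa3 to -1.32 for Nr1i2 (adjusted p = 7.46e-14) and -1.38 for Onecut1 (adjusted p = 0.0002036). Nr1i2 in the rich class was 0.32 to 0.488 of its level in the poor class, and Hnf4a was 0.562 to 0.64. All 9 differences lay below 0 at each of the 4 times, from -0.42 (Nr1i3) to -0.08 (Hnf4a) at 0 h. Without TMM scaling, hepatocyte markers at 48 h summed to 73150–94080 UMIs per 1000000 in the rich and 112000–132500 in the poor class. The part of these markers in the members' differences, which are with TMM, was not tested.

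Genes known to be regulated by the members were read from lists for the FOXA factors, C/EBPα and the nuclear receptors. Alb and Trf in the first list are also among the hepatocyte markers used for scaling. Of 9 FOXA and C/EBPα target genes 6, 1 and 5 were lower and 1, 0 and 1 higher at 24, 36 and 48 h (medians -1.23, -0.124 and -0.775). The largest called falls at 48 h were those of G6pc, the last step of glucose release (-2.47, edgeR adjusted p = 0.01025), Tat (-1.11) and Gys2 (-1.09). G6pc varied between the 48 h sections (83.37 ± 75.31 CPM, SD) and was not called in the spots with the lowest non-hepatocyte score (-1.88, adjusted p = 0.07781). Tat was not called there (adjusted p = 0.441) or with either other scaling. With total counts 2 of the 9 genes were lower and 3 higher at 48 h.

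Bile acid genes downstream of FXR were lower with TMM, where Nr1h4 itself was not called against 0 h. Of the 6 FXR induced genes tested 5, 4 and 4 were lower at 24, 36 and 48 h, with Abcb11, the bile salt export pump, at -0.90 (edgeR adjusted p = 0.02652), Abcb4 at -0.87 and Slc27a5 at -0.86 at 48 h, but with total counts 4, 1 and 0 of the 6 were lower, and with hepatocyte markers also 4, 1 and 0. Nr0b2, the repressor SHP, was 0.56 at 48 h (adjusted p = 0.5279). Of 3 genes that FXR represses through SHP, 2 were lower at each time, Cyp8b1 (-2.69, adjusted p = 9.32e-05) and the uptake carrier Slc10a1 (-1.66) at 48 h, and the count at 48 h was also 2 with either other scaling. The lists are read as groups of genes and do not show the activity of a receptor.

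PXR and CAR target genes went in both directions. Of 15, 1 was higher and 7 lower at 24 h, 3 and 6 at 36 h, and 4 and 7 at 48 h, with medians of -1.02, -0.0269 and -0.551. The balance depended on scaling: with total counts 5 were higher and 4 lower at 36 h, and 6 and 3 at 48 h, and with hepatocyte markers 4 and 3, then 5 and 3. At 48 h the steroid and drug hydroxylases Cyp2c37 (-3.55, edgeR adjusted p = 0.0004457) and Cyp2c29 (-3.35) and the conjugating enzyme Ugt1a1 (-2.40, at 0.761 CPM at 0 h) were lower. Cyp2c29 is also in the study's list of central genes. Loss of central hepatocytes and lower expression per cell cannot be told apart here. Those higher, named after their values were seen, were Gadd45b (1.79, adjusted p = 0.0004399), Slco1a4 (1.28), Abcb1a (1.22) and Por (1.20). All 4 were also called with total counts and per hepatocyte marker UMI, but both scalings raise the median of all genes, so these calls add no support. In the spots with the lowest non-hepatocyte score Gadd45b, Slco1a4 and Por were called, and Abcb1a was not (1.53, edgeR adjusted p = 0.08085). Cyp2b10, the classical CAR target, stood at -1.80, 0.59 and -1.51 at 24, 36 and 48 h (adjusted p = 0.05202, 0.4521 and 0.02946), while its receptor gene Nr1i3 was -0.01, 0.71 and 0.48.

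Among 11 partners and cofactors of nuclear receptors, 2 were higher and 5 lower at 48 h (median -0.319), whereas 3 were higher and 0 lower with either other scaling. Rxra, the common partner, went from 169 ± 16.2 (SD, n = 3) to 120 ± 9.14 CPM (n = 4), -0.49 on the log2 scale (edgeR adjusted p = 0.002734), but it was 0.03 with total counts and -0.10 per hepatocyte marker UMI. Ppargc1b (-0.64) and Rxrb (-0.37) were also lower with TMM, and Rxrb was 0.15 with total counts. Of 18 other hepatocyte factors 7 were lower and 0 higher at 48 h (median -0.412) with TMM, 1 lower and 4 higher (median 0.114) with total counts, and 1 lower and 0 higher with hepatocyte markers. Ppara, the fatty acid receptor, was -1.24 (adjusted p = 0.0002938) and was lower in both other scalings (-0.72 and -0.86), whereas Creb3l3 (-0.90) and Rora (-0.68) were not called with either.

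**Figure D5:**
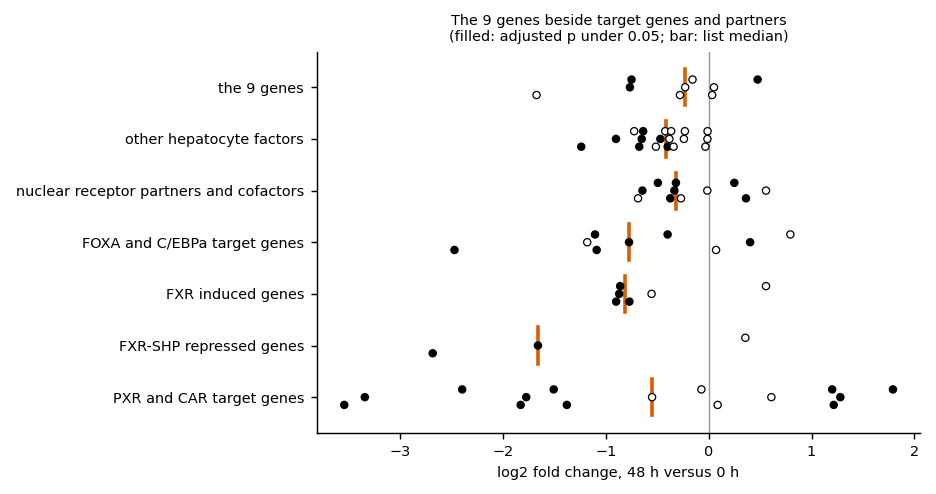
Log2 change at 48 h against 0 h (TMM) of each gene of the lists named in the text, 1 row per list; filled dots passed an edgeR adjusted p of 0.05 and the bar is the list median. The 9 genes have a median of -0.229, 4 of the 6 FXR induced genes are filled and left of 0, and the PXR and CAR targets extend from -3.55 to 1.79.

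The genes most like each member over the 11 sections were found by Pearson r of log2 CPM among 7093 genes of at least 10 CPM. This is a description over sections that share a time and, per the methods, a mouse. For Hnf4a they were Nfia (0.92), As3mt (0.91) and Pik3r1 (0.90), for Cebpa Pmpcb (0.93), Trpc4ap (0.92) and Asb13 (0.91), and for Nr1h4 Tnks1bp1 (0.87), Kalrn (0.85) and Sord (0.85). For Foxa1 they were Ampd2 (0.84), Irak2 and Chmp5 (both 0.83), for Foxa2 Tpp2 (0.90), Phlda1 (0.88) and Ppp3cb (0.82), and for Foxa3 Larp4 (0.97), Serpina3k (0.93) and Cct8 (0.91). For Nr1i2 they were Ankzf1 and Aifm2 (both 0.89) and Pitpnm2 (0.85), for Nr1i3 Akap9 (0.92), Ppcdc and Fmo5 (both 0.88), and for Onecut1 Mitd1 (0.89) and Pi4k2a (0.88). No member was among another member's 3 most alike genes. Between members the highest correlation was that of Foxa1 with Foxa2 (0.755) and the lowest that of Foxa3 with Nr1i3 (-0.653).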

How the data were processed

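Mouse liver sections were profiled with the 10x Visium 3′ assay. The deposited matrices hold raw UMI counts per gene and spot, which the authors made with Space Ranger 1.0.0 on mm10, with Seurat 4.1.1 also named in the submitters' processing notes. No normalised values were used. Tissue spots that had at least 800 genes and at most 20% mitochondrial UMIs, the study's filter, were summed per section (0 to 103 spots removed per section), since spots are not replicates.

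Sums were tested with edgeR 4.0.16 in R 4.3.3 (filterByExpr, TMM scaling, robust quasi-likelihood fit, two-sided, Benjamini-Hochberg over all genes, called at an adjusted p under 0.05, intervals at 95%), with all 11 sections and 4 time groups in 1 fit and a common biological coefficient of variation of 0.194. Zone comparisons used sums per section and spot class, with the section as a block. A class score was the mean log1p of UMIs per 10000 over its genes, scaled to SD 1 within the section where scores were subtracted. The fits tested 14821 (time), 12318 (central and portal), 14077 (portal alone) and 13946 (non-hepatocyte) genes. Alternatives included DESeq2 1.42.0. Tables and figures used Python 3.11.15. The tests were checked on simulated data.

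The members and lists were chosen with earlier results of these data known. The rule was to name all 9 members in every comparison (given here by value, or by count and range where not called), up to 3 called genes per other list with the largest change at 48 h, and the 3 genes most like each member. A target list and a gene that the rule would name are not reported here. Replicate sections differed from each other beyond counting noise (chi-square per gene 42.09 to 225.6 over genes of at least 20 UMIs), so none was a duplicate. Sections with the same letter at different times deviated with correlations of -0.2407 to 0.2868, so letters were taken as names only.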

Additional observations from a re-analysis of the deposited data

Results flagged for a closer look

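Foxa3 at 48 h had 1 section apart from the other 3: section C (27.07 CPM) lay below its nearest neighbour by 0.893 of the whole range of the 4 sections, above the limit for 4 samples. Chance flags about 1 in 20 groups, and 9 genes were screened in the group of 4 sections.

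The difference between the portal and the portal-poor class differed from that at 0 h, by the interaction term in edgeR, in 17 cases. At 24 h the interaction was 0.466 for Hnf4a, 0.492 for Nr1h4, 0.4723 for Nr1i2 and 1.141 for Nr1i3 on the log2 scale. At 36 h it was 0.4969 for Hnf4a, 0.2685 for Cebpa, 0.8594 for Nr1h4, 0.7596 for Nr1i2 and 1.757 for Nr1i3. At 48 h it was 0.7407 for Hnf4a, 0.8276 for Foxa1, 0.6322 for Foxa2, 0.5407 for Cebpa, 1.01 for Nr1h4, 1.261 for Nr1i2, 1.904 for Nr1i3 and 1.458 for Onecut1. Leucocyte and mesenchyme genes moved to the portal-poor class over the same times, and their part in these differences was not tested beyond the spots of low score given above.

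Spots outside the tissue mask, which no comparison used, held 72179 UMIs of the 9 genes. That was 18.11% of the members' UMIs in the deposited matrices, beside 18.98% for all genes.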

How the results depend on the processing

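Values below are counts of the 9 genes called or log2 differences. Of 1538 alternative values for the 97 single-gene results, 1340 kept direction and side of the threshold, 121 lost the call, 23 gained one and 54 changed sign. The main limits are the single mouse per time that the methods give, the TMM factors that moved with time, and classes ranked by genes that themselves changed. At 10 to 227 UMIs a section, Onecut1 is limited by depth. Why a setting moved a value was not tested.

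At 36 h against 0 h total counts and the spots of the lowest non-hepatocyte class each gave 4 calls. At 48 h against 0 h hepatocyte-marker scaling and those spots gave 1. At 36 h against 24 h hepatocyte-marker scaling and only the groups compared gave 0 and DESeq2 gave 2, as it did at 48 h against 36 h. At 48 h against 24 h hepatocyte-marker scaling, no low-count filter and only the groups compared gave 1. With the section letter as a replicate block, over injured sections, 36 h against 24 h gave 0 and 48 h against 24 h gave 1, and the same fit without the block, chosen after seeing the data, gave 0 and 1. Whether the letters mark more than a name could not be shown (correlations of deviations from -0.2407 to 0.2868), since 2 sections of a group deviate by opposite amounts.

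The portal class gave 2 calls at 24 h with total counts, and 0, 1 and 3 at 24, 36 and 48 h in spots under the median non-hepatocyte score. Differences of the portal ratio from 0 h gave 2 at 24 h with total counts or scores from thinned spots, 3 at 36 h with total counts, and 0, 2 and 4 in the spots under the median score. Narrower outer classes gave 1 call for the non-hepatocyte classes at 0 h. No other setting moved a count by over 1.5 times.

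Signs changed at 24 h against 0 h for Hnf4a (0.23 with total counts, 0.13 with hepatocyte markers), Foxa2 (0.22, 0.15), Nr1h4 (0.28, 0.21, and 0.036 in the spots of the lowest non-hepatocyte class), Nr1i2 (0.20, 0.11) and Nr1i3 (0.31, 0.24, and 0.035), and at 36 h for Foxa3 (0.042 with total counts). At 48 h, in the same order, they changed for Hnf4a (0.25, 0.10, 0.0081), Nr1h4 (0.37, 0.23, 0.11) and Nr1i2 (0.30, 0.16, 0.19). Total counts gave 0.055 for Hnf4a between central and portal classes. In the portal class at 24 h Nr1h4 was -0.062 with total counts and -0.096 under the median score, and Nr1i3 was -0.26, -0.0018 (narrower classes) and -0.44. At 48 h Foxa3 was -0.065 and -0.22, and Nr1i3 was -0.26 under the median score, where the Cebpa difference from 0 h was -0.065 at 36 h and -0.0020 at 48 h.

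Leaving out each section gave 0 to 3 calls at 36 h against 0 h, 1 to 4 at 48 h, 0 to 1 at 36 h against 24 h and at 48 h against 36 h, and 1 to 3 at 48 h against 24 h. It gave 4 to 5 between central and portal classes. The portal class gave 0 to 3, 2 to 4, 4 to 5 and 9 to 9 over the 4 times, its differences from 0 h gave 0 to 4, 4 to 5 and 8 to 8, and the non-hepatocyte classes gave 0 to 1, 2 to 5, 4 to 6 and 9 to 9. A lone section left in a group is assumed to vary like the others. Ranges that crossed 0 were, at 24 h against 0 h, Hnf4a -0.28 to 0.063, Foxa1 -0.29 to 0.44, Foxa2 -0.34 to 0.083, Nr1h4 -0.24 to 0.11, Nr1i2 -0.32 to 0.050, Nr1i3 -0.15 to 0.10 and Onecut1 -1.97 to 1.37. At 36 h they were Hnf4a -0.063 to 0.30 and Nr1h4 -0.0092 to 0.52, and at 48 h Foxa1 -0.11 to 0.20 and Foxa2 -0.11 to 0.19. They were also Onecut1 from 24 h to 48 h (-3.05 to 0.29), Hnf4a (-0.031 to 0.016) and Foxa2 (-0.17 to 0.051) between central and portal classes, and Nr1i3 in the portal class at 24 h (-0.26 to 0.40).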
